A study of Mus musculus with 11 samples.

Results

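The metallothionein and glutathione-defence genes described here are 10 genes out of 24421 gene entries. They were listed by function and not by a rule on their values, but with earlier results of these data known. They are the metallothioneins Mt1, Mt2 and Mt3, the transcription factor gene Nfe2l2, the glutathione supply genes Slc7a11, Gclc and Gclm, the glutathione S-transferase Gstm1, and the stress-responsive enzymes Hmox1 and Nqo1. They were measured in green fluorescent cells sorted from 16-week-old Aldh1l1-eGFP mice of the C57BL/6 strain, in which the promoter of Aldh1l1, an astrocyte gene, drives the reporter in every group. Each library came from 1 of 4 regions, with 3 from the olfactory bulb (OB), 3 from the hippocampus (HC), 2 from the cortex (CX) and 3 from the brainstem (BS). The labels name no treatment and do not say whether samples of a region came from separate animals, so the p-values measure the spread between these samples, which may be technical. Total RNA was amplified into libraries from a fixed small input, and the values are normalized read counts, in which the reads on a gene are divided by 1 scaling factor per sample.

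Metallothioneins are small cysteine-rich proteins that bind zinc and copper and react with oxidants. Astrocytes are the brain cells best known for making MT-1 and MT-2, while MT-3 is the form enriched in the nervous system. Astrocytes also make much of the brain's glutathione: the transporter xCT, encoded by Slc7a11, brings in cystine in exchange for glutamate, glutamate-cysteine ligase, made of a catalytic subunit (Gclc) and a modifier subunit (Gclm), makes the first intermediate, and glutathione S-transferases such as Gstm1 conjugate it to reactive compounds. NRF2, the product of Nfe2l2, is a transcription factor that accumulates under oxidative stress, and Gclc, Gclm, Slc7a11, Hmox1 and Nqo1 are among its textbook targets.

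The 3 metallothionein genes are neighbours on chromosome 8, each read from the plus strand, with Mt3 at chr8:94152607-94154146, Mt2 at chr8:94172664-94173568 and Mt1 at chr8:94179082-94180327 in the GENCODE M21 annotation of GRCm38. Between the annotated genes lie 18517 bases from Mt3 to Mt2 and 5513 bases from Mt2 to Mt1. RefSeq promoters of GRCm38.p6 were on hand for 8 of the 10 genes. The 250 bases before the start are printed for the metallothionein genes and for Slc7a11. The metallothioneins are neighbours whose region means were all lowest in BS, but highest in OB for Mt1 and Mt3 and in CX for Mt2. This difference in order was not tested. For Slc7a11, the lower level in BS than in the other regions was called in all 24 alternatives tried. Capitals mark matches, on either strand, to the metal response element core, searched as TGCACNC and TGCGCNC, to the antioxidant response element core, searched as TGACNNNGC, and to the amino acid response element core, searched as TGATGCAA.
Mt1: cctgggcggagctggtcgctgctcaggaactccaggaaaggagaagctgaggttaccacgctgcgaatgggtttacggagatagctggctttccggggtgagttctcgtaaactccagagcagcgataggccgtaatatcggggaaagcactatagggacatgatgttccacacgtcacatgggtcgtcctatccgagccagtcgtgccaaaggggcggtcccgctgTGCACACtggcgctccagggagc
Mt2: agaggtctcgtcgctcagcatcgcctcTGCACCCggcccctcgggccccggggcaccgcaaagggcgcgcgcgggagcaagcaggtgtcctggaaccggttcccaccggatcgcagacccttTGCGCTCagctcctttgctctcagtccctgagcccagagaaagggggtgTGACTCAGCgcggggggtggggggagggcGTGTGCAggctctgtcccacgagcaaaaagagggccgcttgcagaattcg
Mt3: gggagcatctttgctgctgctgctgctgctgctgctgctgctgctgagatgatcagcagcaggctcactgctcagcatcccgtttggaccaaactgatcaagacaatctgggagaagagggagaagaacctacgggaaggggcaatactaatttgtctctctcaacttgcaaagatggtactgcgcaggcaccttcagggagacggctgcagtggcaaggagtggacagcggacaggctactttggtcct
Slc7a11: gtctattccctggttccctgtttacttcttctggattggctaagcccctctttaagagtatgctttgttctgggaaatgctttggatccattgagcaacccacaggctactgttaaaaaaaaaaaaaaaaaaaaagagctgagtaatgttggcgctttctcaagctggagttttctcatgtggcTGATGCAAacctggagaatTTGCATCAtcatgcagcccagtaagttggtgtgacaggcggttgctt
These stretches are chr8:94178839-94179088 for Mt1, chr8:94172368-94172617 for Mt2 and chr8:94152357-94152606 for Mt3, all on the plus strand, and chr3:50443614-50443863 for Slc7a11 on the minus strand. The Mt2 stretch held 3 metal response cores and 1 antioxidant response core, the Mt1 stretch held 1 metal response core, and the Mt3 stretch held none of these letters. No marked matches overlapped in the 4 printed stretches. At least 1 metal response core was present in 21.3% of 27025 promoters of the same length, 3 or more in 1.28% and an antioxidant response core in 10.1%. The Slc7a11 stretch held 2 amino acid response cores in opposite orientation, at 66 to 59 and 47 to 40 bases before the start, and 0.818% of promoters held at least 1. Of the promoters not printed, Gclm held 2 metal response cores and 1 antioxidant response core, of which 1 pair overlapped, Nfe2l2 held 1 antioxidant response core, Gstm1 held 1 metal response core and Nqo1 held none of the 4 motifs. These matches describe letters in a short window before a listed RefSeq start, and binding was not measured. Bases after that start, including any nearer to another start of the gene, were not searched. The counts therefore do not show which of the genes has more such elements.

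Recovered read totals lay between 2830746 and 14151670 per sample, with a median of 5552215, and a floor of 3 reads corresponded to normalized counts of 1.10 to 6.31. All 10 genes passed the filter on low counts, with 13875 genes tested. Reads on Rn45s, the ribosomal RNA precursor, made up 19.0% to 20.7% of reads in CX and 18.0% to 25.6% in BS, against 2.14% to 2.93% in OB and 0.966% to 2.36% in HC. The sorted cells carried astrocyte transcripts in every region. The summed level of 8 astrocyte markers was 93288 to 277780 in BS and 230526 to 275534 in OB. It was 270999 to 461723 in HC and 555938 to 630026 in CX. Slc1a2 made up most of this sum, at 61764 to 208927 in BS and 472464 to 541892 in CX. Of the 8 markers, limma called 1 lower in BS, Slc1a3, and none higher. The estimate of Aqp4 was higher in BS, by 0.41. Gfap had its lowest mean in CX, 1099 against 1455 in BS. Choroid plexus markers (9 genes, none at 0 in HC, CX or BS, and Folr1 at 0 in OB) summed to 76406 to 365281 in BS and 105953 to 219231 in HC, against 2519 to 3069 in OB and 3376 to 8384 in CX. Oligodendrocyte lineage markers (9 genes, none at 0 in any region) summed to 50567 to 86707 in BS and 17644 to 38453 in HC. Their sums were 17752 to 19388 in CX and 9200 to 15270 in OB. Mbp made up most of the sum in BS, at 37477 to 65569. Sox10 was highest in OB, at 168 to 213 against 45.2 to 139 in BS. In such bulk samples, fewer cells of a type and less RNA per cell cannot be told apart.

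Expression of the 10 genes was first compared among the 4 regions. Slc7a11, Mt3 and Gstm1 differed among regions (limma on log2 values with Benjamini-Hochberg adjustment), which is 3 of 10 genes where 16.5% of all tested genes differed. Slc7a11 and Gstm1 were lowest in BS and highest in CX, whereas Mt3 was highest in OB and lowest in BS. The difference between the highest and the lowest region mean was 1.69 on the log2 scale for Slc7a11 (adjusted p = 0.00171), 2.01 for Mt3 (adjusted p = 0.0121) and 1.36 for Gstm1 (adjusted p = 0.0275). Mt2 (adjusted p = 0.0518) and Mt1 (adjusted p = 0.0586) missed the threshold, and the adjusted p of Nfe2l2, Gclc, Gclm, Hmox1 and Nqo1 lay between 0.159 and 0.264. The median range between region means was 0.96 for the 10 genes and 0.84 for all genes. DESeq2 on the recovered reads called 5 of the 10 genes and 3062 of all 13875 genes. With edgeR under TMM scaling, 2 of the 10 genes and 2073 of all genes were called. Per-sample values of the 10 genes are plotted by region.

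**Figure D1:**
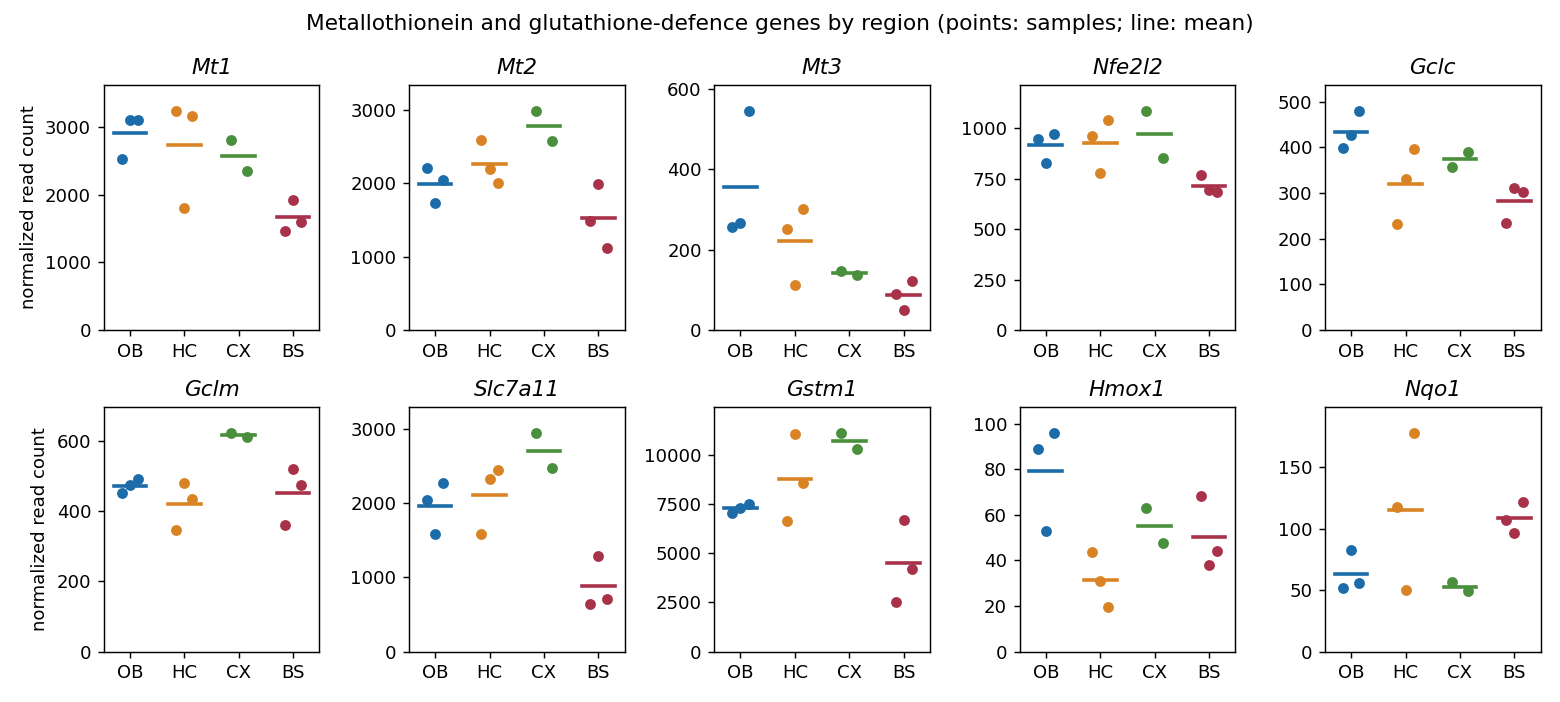
Normalized read counts (vertical axes, linear from 0, each gene on its own scale) of the 10 genes in OB, HC, CX and BS. Each point is 1 sample and each line the mean of 3 samples (2 in CX); the 3 BS points of Slc7a11 lie between 635 and 1290, below the 8 points of the other regions.

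Each region was then set against the other 3. In BS, 3 of the 10 genes were called and all were lower, Slc7a11, Mt1 and Gstm1, where 3.42% of all genes were called lower in BS. The study's own rule was applied here as limma p under 0.01 without adjustment, more than a 1.5-fold change and normalized counts above 5 in 2 replicates of any 1 region. The study took p from DESeq2 and describes its genes as changed in 1 region only. That last condition was not applied here, so a gene could pass for more than 1 region. By the rule as applied here 5 genes were lower in BS, Mt2 and Mt3 in addition, against 5.05% of all genes. The median difference between BS and the other regions was -0.50 on the log2 scale over the 10 genes and 0.02 over all genes. Every BS sample lay below every other sample for 2 of the 10 genes, Slc7a11 and Nfe2l2, and for 4.19% of all genes. No such share was computed for the other separations of samples given below.

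None of the 10 genes was called by limma, edgeR or DESeq2 in OB, HC or CX against the other regions. The limma backgrounds were 4.58% in OB, 0% in HC and 0.0144% in CX, and DESeq2 called 1241, 94 and 126 of all genes. At an unadjusted p under 0.05 by limma, 3 of the genes passed for OB, 1 for HC and 2 for CX. Of all 13875 tested genes, 2436, 789 and 1372 passed. By the study's rule as applied here Mt3, which also passed as lower in BS, was higher in OB, where 4.15% of all genes were higher. No member passed in HC or CX, where 1.28% and 2.77% of all genes did. Between pairs of regions, OB exceeded BS for Mt3, Slc7a11 and Mt1 (3 of 10, against 7.41% of genes higher in OB). CX exceeded BS for Slc7a11, Gstm1 and Mt2 (3 of 10, against 5.46%), and HC exceeded BS for Slc7a11 (1 of 10, against 2.69%). Among OB, HC and CX none of the 10 genes was called by limma in any pair, where 7.11% of all genes differed between OB and HC, 4.91% between OB and CX and 1.23% between HC and CX. At an unadjusted p under 0.05 these pairs had 2, 1 and 1 of the genes, where 2547, 2256 and 1727 of all 13875 genes passed. Between OB and HC, DESeq2 called 1 of the 10 genes and 1417 of all genes. DESeq2 called 0 of the 10 in the others, and edgeR called 0 in each. These comparisons share samples and are given side by side in the map of differences.

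**Figure D2:**
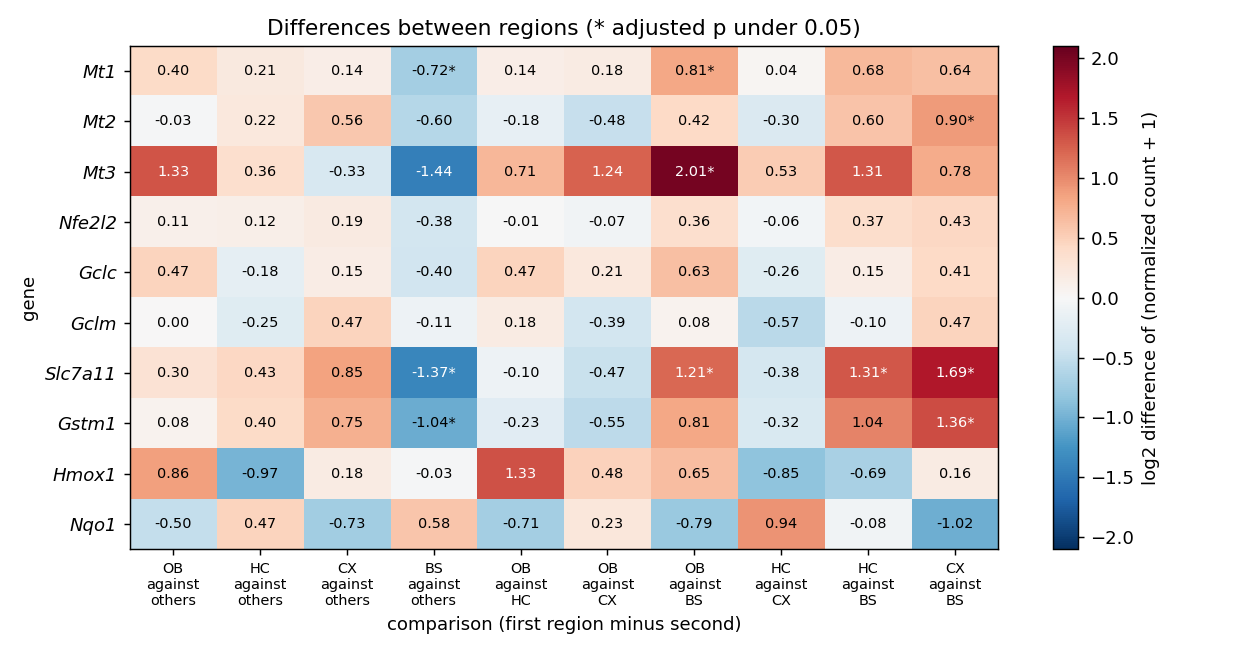
Difference of the mean log2(normalized count + 1), first region minus second (numbers and colour), for the 10 genes (rows) in 10 comparisons (columns); an asterisk marks an adjusted p under 0.05. All 10 asterisks stand in comparisons that involve BS, with Slc7a11 lower in BS by 1.37 than in the other regions together.

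Mt1 and Mt2 encode the metallothioneins found in most tissues, and both were abundant in every region. Normalized counts of Mt1 were 2531, 3096 and 3109 in OB samples 1 to 3, 3234, 1798 and 3162 in HC, 2804 and 2350.5 in CX, and 1469.7, 1919 and 1598 in BS. BS samples were below all others except HC sample 2, which lay between BS samples 3 and 2. Mt1 was lower in BS than in the other regions by a log2 difference of -0.72 ± 0.18 (SE, adjusted p = 0.0374) and higher in OB than in BS by 0.81 ± 0.22 (adjusted p = 0.0202). The order of the means was OB (2912 ± 330, SD, n = 3), HC (2731 ± 809, n = 3), CX (2577 ± 321, n = 2) and BS (1662 ± 232, n = 3), and limma called none of the neighbouring pairs, although CX and BS samples did not overlap (adjusted p = 0.116). BS call did not survive the loss of OB sample 1, 2 or 3, HC sample 3, CX sample 1 or BS sample 1 or 3, with differences of -0.63 to -0.73 and adjusted p of 0.0534 to 0.180, and with Rn45s left out of the scaling it was also lost (-0.61, adjusted p = 0.0746). The call of OB against BS was lost without OB sample 2 or 3 or BS sample 1 or 3, with differences of 0.73 to 0.79 and adjusted p of 0.0638 to 0.0811. Relative to the mean log2 level of the 8 astrocyte markers, Mt1 in BS differed from the other regions by -0.01 (adjusted p = 0.982 by limma). On that scale the median BS difference of all genes was 0.71, where it was 0.02 in the main fit.

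The region means of Mt2 had a different order from those of Mt1, a difference that was not tested. Its normalized counts were 2204, 1731 and 2051 in OB, 2590 and 2194 and 2004 in HC samples 1 to 3, 2983 and 2571 in CX, and 1491, 1987 and 1113 in BS. CX samples were both above every OB and BS sample, and BS sample 2 reached OB range. CX exceeded BS by 0.90 ± 0.23 (SE, adjusted p = 0.0204), while the difference of BS from the other regions together, -0.60 ± 0.19, had an adjusted p of 0.0864. The means were 2777 ± 291 (SD, n = 2) in CX, 2262 ± 299 (n = 3) in HC, 1995 ± 241 (n = 3) in OB and 1530.5 ± 438 (n = 3) in BS, and limma called none of the neighbouring pairs, all of which overlapped. The call of CX against BS was lost without CX sample 1 (0.79, adjusted p = 0.202), CX sample 2 (1.00, adjusted p = 0.0773) or BS sample 3 (0.69, adjusted p = 0.0855), and relative to the astrocyte markers the difference was -0.01 (adjusted p = 0.989). On that marker scale the median difference of all genes for CX against BS was -0.91. The ratio of Mt1 to Mt2 counts averaged 1.48 in OB, 1.22 in HC, 1.13 in BS and 0.927 in CX. Its range was 1.15 to 1.79 in OB, 0.820 to 1.58 in HC, 0.966 to 1.43 in BS and 0.914 to 0.940 in CX. The CX range lay below those of OB and BS and inside that of HC, and the OB and BS ranges overlapped. Differences in this ratio were not tested. Mt1 and Mt2 together summed to 2711 to 3907 normalized counts in BS and 3992 to 5824 elsewhere.

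Mt3 encodes the metallothionein first described as a neuronal growth inhibitory factor. It was the least abundant of the 3 and the most variable. Normalized counts were 256, 266 and 544 in OB, 252, 112 and 300.5 in HC, 146 and 136 in CX, and 89.4, 50.1 and 122 in BS, on 25 to 1010 reads per sample. Every OB sample exceeded every CX and BS sample, OB sample 3 stood well above the other OB samples, and HC sample 2 fell within BS range. OB exceeded BS by 2.01 ± 0.40 (SE, adjusted p = 0.00281), and this call held without any 1 library. OB against the other regions together gave 1.33 ± 0.44 (unadjusted p = 0.00919, adjusted p = 0.114 by limma), and BS against the others -1.44 ± 0.41 (adjusted p = 0.0581). The means descended from 355 ± 163 (SD, n = 3) in OB through 222 ± 97.6 (n = 3) in HC and 141 ± 6.56 (n = 2) in CX to 87.2 ± 36.0 (n = 3) in BS. Limma called none of the neighbouring pairs, although CX and BS samples did not overlap (adjusted p = 0.315). Relative to the astrocyte markers, OB exceeded BS by 1.36 (adjusted p = 0.0788 by limma), where the median difference of all genes for OB against BS was -0.62. Without the trend the call among the 4 regions was lost (adjusted p = 0.0818). The neuron markers, 8 genes with none at 0 in any region, summed to 1854 to 3342 normalized counts in OB and 1283 to 2395 in HC. Their sums were 2216 to 2763 in CX and 2299.9 to 3315 in BS. Of these markers, limma called Snap25 and Stmn2 higher in BS, and Syt1 and Slc17a7 lower. The part of the neuron markers in the Mt3 result was not tested.

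Within the metallothionein signal the share of Mt3 was small everywhere. Per kilobase of exon, Mt1 averaged 5305 normalized counts in OB, 4975 in HC, 4695 in CX and 3028 in BS, Mt2 averaged 3905, 4428, 5434 and 2995, and Mt3 averaged 663, 413, 263 and 163. Mt3 thus made up 5.08% to 9.49% of the per-kilobase signal in OB, 2.69% to 5.47% in HC, 2.42% to 2.66% in CX and 1.25% to 4.28% in BS. OB range did not overlap those of CX and BS, and it overlapped that of HC through HC sample 3. Mt4, the remaining metallothionein gene of this cluster and known from stratified epithelium, was listed at 0 in all 11 samples.

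**Figure D3:**
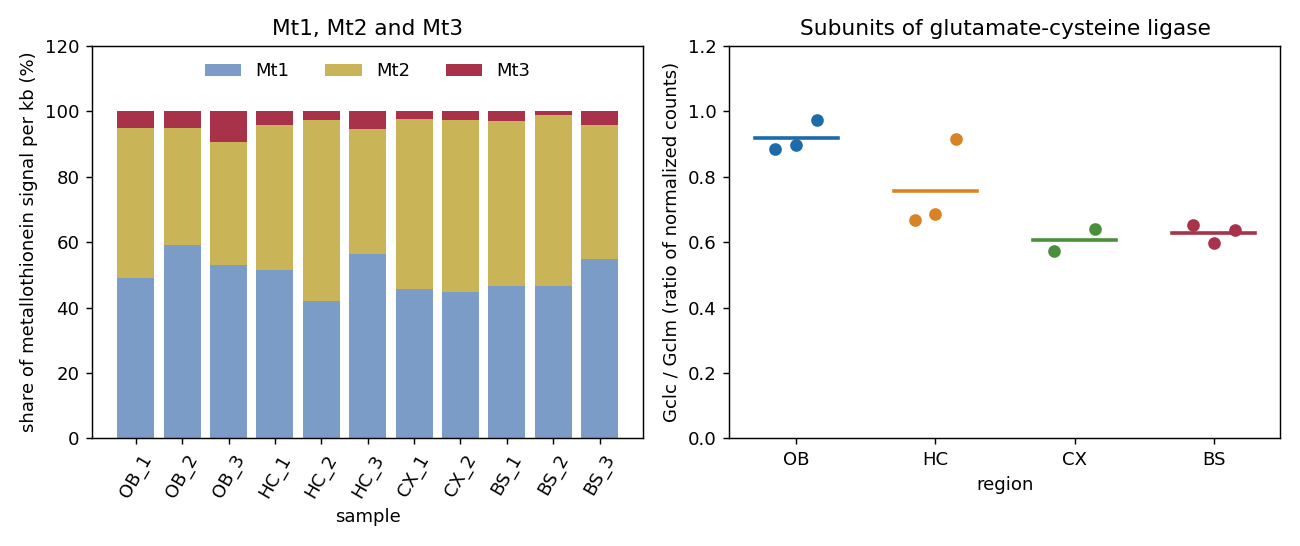
Left, percent of the per-kilobase metallothionein signal taken by Mt1, Mt2 and Mt3 in each sample (stacked bars). Right, ratio of Gclc to Gclm normalized counts by region, each point 1 sample and each line the mean; the 3 OB samples lie at 0.884 to 0.974, above all CX and BS samples.

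Slc7a11, the cystine and glutamate exchanger that sets the supply of cysteine, was the member whose lower level in BS held most widely. Its normalized counts were 2033, 1580.5 and 2269 in OB, 1587, 2315 and 2438 in HC, 2941 and 2469 in CX, and 635, 1290.2 and 714 in BS. No BS sample overlapped with any other sample, both CX samples were above the rest, and OB and HC samples were intermixed. Slc7a11 was lower in BS by -1.37 ± 0.23 than in the other regions (SE, adjusted p = 0.00337). OB exceeded BS by 1.21 ± 0.25 (adjusted p = 0.00417), HC by 1.31 ± 0.25 (adjusted p = 0.00566) and CX by 1.69 ± 0.28 (adjusted p = 0.00123). The means were 2705 ± 334 (SD, n = 2) in CX, 2113 ± 460 (n = 3) in HC, 1961 ± 350 (n = 3) in OB and 879.6 ± 358 (n = 3) in BS, and of the neighbours in this order limma called OB against BS alone, while CX and HC samples did not overlap either (adjusted p = 0.651). The call of BS against the other regions held in all 24 alternatives, with differences of -0.66 to -1.68 and adjusted p up to 0.0335. Without the filter on low counts the calls of OB and HC against BS were lost (adjusted p = 0.0643 and 0.111), and that of HC against BS was also lost without the mean-variance trend (adjusted p = 0.0625).

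Gstm1, a glutathione S-transferase of the mu class, was the most abundant of the 10 genes by read count. Its normalized counts were 7070.3, 7289 and 7515 in OB, 6622, 11071 and 8572 in HC, 11119 and 10279 in CX, and 2538, 6699 and 4207 in BS. The 3 OB samples were tightly grouped, BS sample 2 exceeded HC sample 1, and BS sample 1 was far below all non-BS samples. Gstm1 was lower in BS by -1.04 ± 0.27 (SE, adjusted p = 0.0379) and higher in CX than in BS by 1.36 ± 0.33 (adjusted p = 0.0142). Under edgeR with TMM scaling the difference in BS was -0.97 (adjusted p = 0.0727). The call in BS was lost without OB sample 2 or 3, HC sample 2 or 3, CX sample 1 or 2, or BS sample 3, with differences of -0.98 to -1.07 and adjusted p of 0.0506 to 0.135, and without BS sample 1 (-0.68, adjusted p = 0.231). The call among the 4 regions was lost without any 1 of OB or CX samples or BS sample 1 or 3, with adjusted p of 0.0522 to 0.0969, and that of CX against BS without either CX sample (1.31 and 1.42, adjusted p = 0.132 and 0.0825). The means were 10699 ± 594 (SD, n = 2) in CX, 8755 ± 2230.3 (n = 3) in HC, 7291 ± 222 (n = 3) in OB and 4482 ± 2094 (n = 3) in BS. Limma called none of the neighbouring pairs, although OB and BS samples did not overlap (adjusted p = 0.0788). Gstm1 belongs to a family of similar genes, so reads shared with other mu-class members could have been assigned unevenly.

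Slc7a11 and Gstm1 were then set beside the astrocyte markers sample by sample. The mean log2 level of the 8 markers was 11.86, 12.94 and 12.37 in BS samples 1 to 3, 12.62, 13.18 and 13.28 in HC, 12.97, 13.01 and 13.17 in OB, and 13.31 and 13.28 in CX. BS sample 1 was lowest and BS sample 2 highest of BS samples for the markers, for Slc7a11 and for Gstm1. In HC, Slc7a11 followed the order of the markers, but Gstm1 was highest in sample 2. In OB, Gstm1 followed that order, but Slc7a11 was lowest in sample 2. Among the markers Slc1a3, the glutamate transporter GLAST, was lower in BS by -2.64 ± 0.34 (SE, adjusted p = 0.000479), whereas Aldh1l1, whose promoter drives the reporter, had 623 to 1256 normalized counts in BS and 943 to 974 in OB. Relative to these markers, Slc7a11 was still lower in BS than in the other regions by -0.66 (adjusted p = 0.0153), at -2.89 to -2.55 in BS against -2.38 to -1.79 in the other regions. For Gstm1 the same difference was -0.33 (adjusted p = 0.120). On that scale the median of all genes was higher in BS by 0.71. The parts of choroid plexus, oligodendrocyte and meningeal transcripts, the last at 1703 to 8811 summed counts over 6 genes in BS, 2010 to 3832 in HC, 469.9 to 538 in CX and 459 to 688 in OB, in these differences were not tested.

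**Figure D4:**
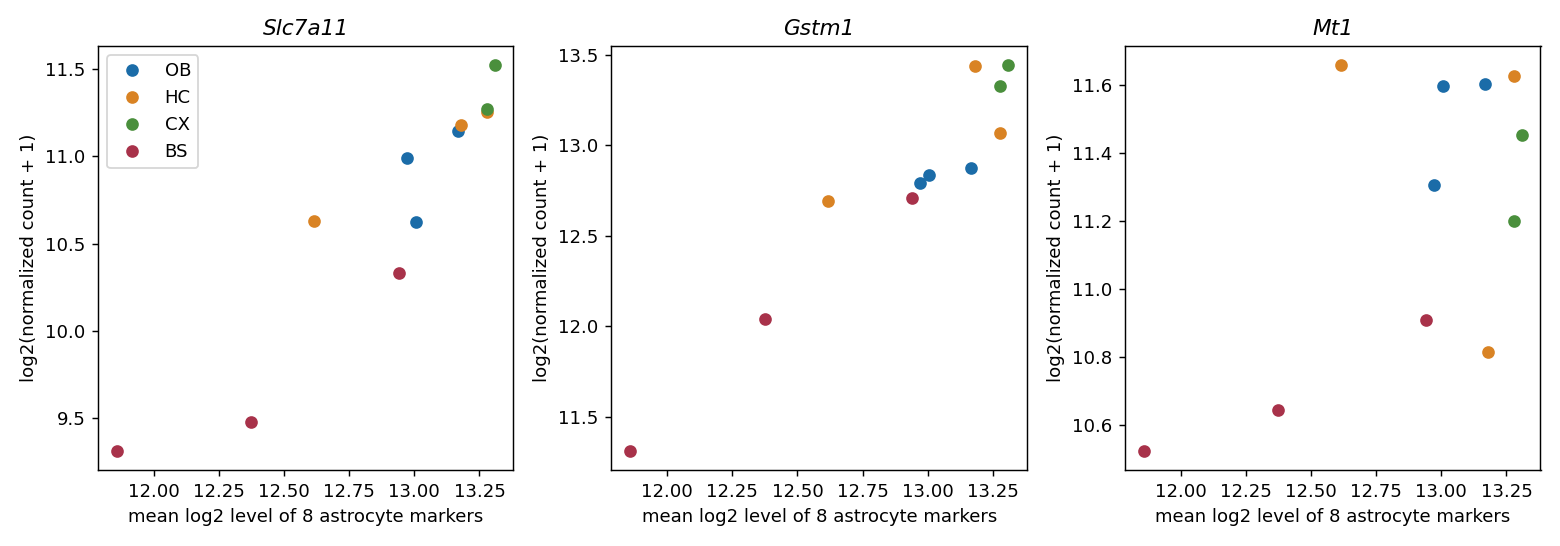
Level of Slc7a11, Gstm1 and Mt1 as log2(normalized count + 1) (vertical axes) beside the mean log2 level of 8 astrocyte markers (horizontal axes) in the 11 samples, coloured by region. BS samples 1 and 3 are lowest on the horizontal axis, at 11.86 and 12.37, and BS sample 2, at 12.94, lies below OB samples in Slc7a11.

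Gclc and Gclm, the subunits of the rate-limiting enzyme of glutathione synthesis, were not called in any comparison. The order of their region means differed, a difference that was not tested. Gclc counts were 399, 426 and 479 in OB, 232, 331 and 397 in HC, 357 and 391 in CX, and 234, 311 and 303 in BS. Gclm counts were 451, 475 and 492 in OB, 347, 481 and 434 in HC, 623 and 612 in CX, and 359.5, 521 and 476 in BS. For Gclc every OB sample was above every other sample, but OB sample 1 at 398.5 was close to HC sample 3 at 397.4. For Gclm both CX samples were above every other sample. The share of all genes with such a separation in OB or CX was not computed. The difference between OB and BS in Gclc was 0.63 ± 0.21 (SE, adjusted p = 0.0608), and that of CX from the other regions in Gclm was 0.47 ± 0.18 (adjusted p = 0.397). The Gclc to Gclm ratio was 0.884 to 0.974 in OB, 0.668 to 0.915 in HC, 0.573 to 0.639 in CX and 0.596 to 0.652 in BS. Ratios in OB exceeded all those in CX and BS, and HC sample 3 reached OB range. Mean Gclc counts were 435 ± 41.1 (SD, n = 3) in OB, 374 ± 24.2 (n = 2) in CX, 320 ± 83.3 (n = 3) in HC and 283 ± 41.9 (n = 3) in BS, and mean Gclm counts 617 ± 8.05 (n = 2) in CX, 473 ± 21.0 (n = 3) in OB, 452 ± 83.2 (n = 3) in BS and 421 ± 68.3 (n = 3) in HC. Limma called none of the neighbouring pairs, although OB and CX samples did not overlap for Gclc (adjusted p = 0.741) or for Gclm (adjusted p = 0.393).

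Nfe2l2, which encodes NRF2, had the smallest range between region means of the 10 genes. Its counts were 949, 829.7 and 973 in OB, 963, 780.0 and 1042 in HC, 1085 and 856 in CX, and 769, 693 and 686 in BS. BS samples lay just below all others, the nearest being BS sample 1 at 769 and HC sample 2 at 780.0. BS differed from the other regions by -0.38 ± 0.13 (SE, adjusted p = 0.118), and the range between region means was 0.43 on the log2 scale (adjusted p = 0.264). Means were 971 ± 163 (SD, n = 2) in CX, 928 ± 134 (n = 3) in HC, 917 ± 76.9 (n = 3) in OB and 716 ± 45.7 (n = 3) in BS. Limma called none of the neighbouring pairs, although OB and BS samples did not overlap (adjusted p = 0.184). The messenger level does not report NRF2 protein, which is regulated mainly by degradation.

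Hmox1, the inducible haem oxygenase, and Nqo1, a quinone reductase, were covered by few reads, 19 to 178 and 32 to 485 per sample. Hmox1 counts were 89.0, 52.9 and 95.9 in OB, 43.7, 31.1 and 19.4 in HC, 62.8 and 47.5 in CX, and 68.3, 38.1 and 44.2 in BS. Every HC sample was below every OB and CX sample, and the difference between OB and HC was 1.33 ± 0.42 (SE, adjusted p = 0.0726). Nqo1 counts were 52.1, 82.9 and 55.5 in OB, 118, 50.2 and 178 in HC, 56.5 and 49.1 in CX, and 107, 96.2 and 122 in BS. BS samples exceeded all OB and CX samples, while HC samples spanned nearly the whole range, and BS differed from the other regions by 0.58 ± 0.38 (adjusted p = 0.410). Nqo1 was the 1 gene of the 10 whose estimate was higher in BS than in the other regions. Hmox1 means ran from 79.3 ± 23.1 (SD, n = 3) in OB through 55.2 ± 10.8 (n = 2) in CX and 50.2 ± 16.0 (n = 3) in BS to 31.4 ± 12.1 (n = 3) in HC, and Nqo1 means from 115 ± 63.9 (n = 3) in HC through 108 ± 13.0 (n = 3) in BS and 63.5 ± 16.9 (n = 3) in OB to 52.8 ± 5.28 (n = 2) in CX. Limma called none of the neighbouring pairs, although BS and OB samples did not overlap for Nqo1 (adjusted p = 0.223). Hmox1 is also made by microglia, whose 10 markers were not at 0 in any region. Their sums were 1006 to 2792 in OB, 1105 to 3543 in HC, 1408 to 1996 in CX and 1000 to 2069 in BS. The 6 globin genes of red blood cells were listed at 0 in every sample. Alas2, the other red blood cell marker, was above 0 in every sample. Its counts were 15.6 to 28.4 in OB, 4.57 to 8.12 in HC, 6.13 to 7.54 in CX and 10.5 to 42.1 in BS. The part of these cells in the Hmox1 values was not tested.

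Per kilobase of exon, Gstm1 (3477 to 8300.1 normalized counts by region mean), Mt1 (3028 to 5305) and Mt2 (2995 to 5434) stood well above the other members. Mt3 followed at 163 to 663, then Nfe2l2 at 189 to 256 and Slc7a11 at 95.4 to 293. Gclc (82.6 to 127), Gclm (75.3 to 110.5), Nqo1 (34.0 to 74.3) and Hmox1 (20.0 to 50.5) were lower. By region mean per kilobase Gstm1 was the highest in OB, HC, CX and BS, but in HC sample 1 and BS sample 1 it lay below Mt1.

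Pairs of members varied to different degrees across the 11 samples, which share their library preparation and scaling. Pearson's r of log2 levels was 0.94 between Slc7a11 and Gstm1, 0.83 between Slc7a11 and Mt2, 0.78 between Mt1 and Mt3, 0.58 between Mt1 and Mt2, and 0.19 between Mt2 and Mt3. The genes most like Slc7a11 over the 11 samples were Fgd6 (r = 0.98), Prdx6 (0.98) and Tmem56 (0.98), and those most like Gstm1 were Rftn2 (0.99), Csdc2 (0.98) and Dtna (0.98). Mt1 was most like Uqcc2 (0.94), Mrpl30 (0.92) and Hist1h2bc (0.91), Mt2 most like Pantr2 (0.95), Lama3 (0.93) and Pde8b (0.91), and Mt3 most like Azin1 (0.91), Mcu (0.89) and Fam134c (0.88). For Gclc these were Vav3 (0.98), Hsd17b11 (0.95) and Dagla (0.93), for Gclm Opa1 (0.97), Hdac5 (0.95) and Ank2 (0.94), and for Nfe2l2 Cdc23 (0.93), Ttll12 (0.91) and Timm8b (0.91). Hmox1 was most like Man1b1 (0.89), Alk (0.88) and Hrh2 (0.88), and Nqo1 most like Limk2 (0.93), Mvb12a (0.91) and Uqcrb (0.90). These correlations include the differences between regions and are given as a description.

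Other genes of glutathione metabolism are given from wider lists, whose counts stand beside 16.5% of all genes that differed among regions, 3.42% lower in BS and 2% higher in BS, and beside a median BS difference of 0.02 over all genes. Of 24 tested genes of glutathione synthesis, recycling and use, 5 differed among the regions and 1 was higher and none lower in BS, with a median BS difference of 0.22. The secreted glutathione peroxidase Gpx3 was higher in BS by 2.37 ± 0.52 (SE, adjusted p = 0.0172), Gpx8 differed by 3.93 between its highest (HC) and lowest (CX) region (adjusted p = 0.000372), and the glutathione conjugate exporter Abcc1 was lower in OB by -1.69 ± 0.34 (adjusted p = 0.0110). Among 17 other glutathione S-transferases, 5 differed among the regions, with 2 lower and 1 higher in BS and a median of 0.02. Gstm5, of the same mu class as Gstm1, was lower in BS by -1.69 ± 0.26 (adjusted p = 0.00141), at 323 to 653 normalized counts against 1023 to 2007 elsewhere, whereas the theta-class Gstt3 was higher by 1.39 ± 0.36 (adjusted p = 0.0384). Gsta4, which handles 4-hydroxynonenal, was higher in BS than in CX by 1.08 ± 0.25 (adjusted p = 0.0119).

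Of 16 tested thioredoxin, peroxiredoxin and superoxide dismutase genes, 3 differed among regions and 2 were lower and none higher in BS, with a median of -0.03. Prdx6, a peroxiredoxin that uses glutathione, was lower in BS by -0.95 ± 0.22 (SE, adjusted p = 0.0223), while Prdx5 and the extracellular dismutase Sod3 were lower in OB than in BS, by -0.86 ± 0.23 (adjusted p = 0.0186) and -1.26 ± 0.33 (adjusted p = 0.0166). Of 10 NRF2 regulators and partners, 1 differed among regions: Bach2, a repressor of the BACH family, was higher in CX than in BS by 1.28 ± 0.33 (adjusted p = 0.0207). Of 16 tested other NRF2 targets, 3 differed, with 1 higher and none lower in BS and 3 lower in OB. Fth1, the ferritin heavy chain, was higher in BS by 1.27 ± 0.35 (adjusted p = 0.0475) and lower in OB by -1.34 ± 0.34 (adjusted p = 0.0363), and in OB Ephx1 (-1.55 ± 0.34, adjusted p = 0.0179) and Aox1 (-1.25 ± 0.23, adjusted p = 0.00628) were also lower.

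Of 21 tested zinc and copper handling genes, 4 differed among regions, with 2 lower and none higher in BS and a median of 0.15. Slc30a10, a metal exporter of the zinc transporter family, was lower in BS by -1.42 ± 0.27 (SE, adjusted p = 0.00831), at 117 to 214 normalized counts against 240.5 to 653 elsewhere. The copper importer Slc31a1 was lower in OB than in BS by -1.89 ± 0.33 (adjusted p = 0.00102) and the copper pump Atp7a was lower in CX than in BS by -1.49 ± 0.38 (adjusted p = 0.0202). Choroid plexus markers were also high in HC and BS, and the summed oligodendrocyte lineage markers were highest in BS and lowest in OB. The part of these markers' cells in the values of Slc31a1, Atp7a, Gpx3, Gpx8, Abcc1, Fth1, Ephx1 and Aox1 was not tested. All the wider lists are plotted for BS.

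**Figure D5:**
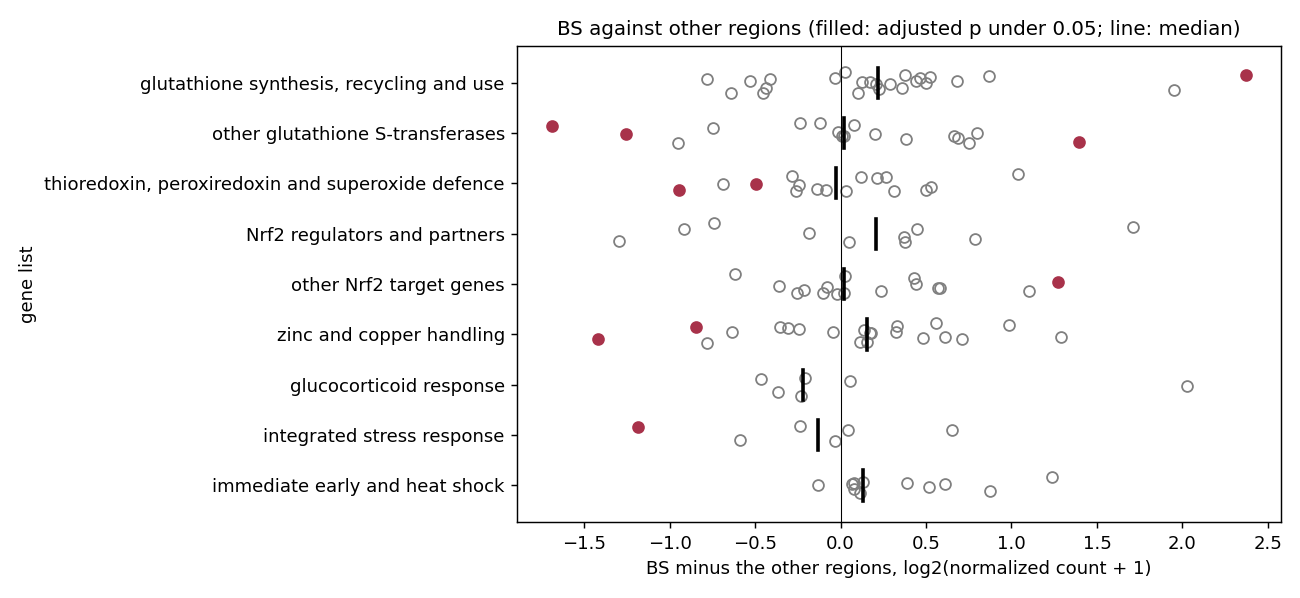
Difference of BS from the other regions in mean log2(normalized count + 1) (horizontal axis) for the tested genes of 9 lists (rows). Filled points passed an adjusted p under 0.05 and black lines are list medians, which lie between -0.22 and 0.22.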

How the data were processed

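Reads from 11 libraries were mapped with STAR 2.5.0a to mm10 and normalized with DESeq2 1.20.0, per the labels. The deposited unit is a normalized signal, which the authors call RPM, in which each sample's gene counts were divided by 1 size factor. All non-zero values were whole multiples of 1 step per sample within a tolerance of 0.1 reads (100%), which gave back the reads. Of 24421 entries, 27 carried date-converted names. The planned test was edgeR if the files held raw counts and limma if they held normalized values, as they did. Limma two-sided tests (version 3.58.1, R 4.3.3, trend option on) were run on log2(value + 1) for genes that passed filterByExpr of edgeR 4.0.16 on the recovered reads. P-values were adjusted by Benjamini-Hochberg over all 13875 tested genes and called under 0.05. A fold change on the log2(value + 1) scale understates the change of low genes. DESeq2 1.42.0 and edgeR on recovered reads, other pseudocounts, filters and scalings, a replicate block and leaving out each library were alternatives. Scalings without Rn45s and relative to the astrocyte markers were chosen after seeing the data. The fits were tested on simulated data.

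The genes and lists were chosen with earlier results of these data known. Besides the 10 genes, the text names from each list up to 3 genes with the smallest p among those that differed among regions, the 3 genes most correlated with each member, and marker genes. Lengths per kilobase are exons of GENCODE M21 transcripts paired with RefSeq. Python 3.11.15, numpy 2.4.6, pandas 2.3.3 and matplotlib 3.10.9 were used. The floor of 3 reads covers counting error only.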

Additional observations from a re-analysis of the deposited data

How the results depend on the processing

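Among the 4 regions, 3 members were called, and 0 were called without the filter, 1 without the trend, 5 by DESeq2, 7 as RPM, 1 relative to the astrocyte markers and 2 to 5 when 1 library was left out. In BS against the other regions, 3 were called, and 1 was called without the filter, 1 without the trend, 1 by edgeR with RLE scaling, 5 against the average of the other region means and 1 to 4 without 1 library. The corresponding count in OB went from 0 to 1 against the average of region means. Over all genes, calls against that average were 1945 in BS and 1345 in OB, where the main fit had 752 and 636. OB against BS gave 3 calls, but 0 without the filter, 7 as RPM, 1 relative to the markers and 2 to 6 without 1 library. HC against BS gave 1, but 0 without the filter, 0 without the trend, 4 by DESeq2, 6 as RPM, 2 without Rn45s and 1 to 3 without 1 library. CX against BS gave 3, but 1 without the filter, 1 without the trend and 1 to 3 without 1 library. DESeq2 called 1 member between OB and HC, and RPM values 1 between OB and CX, where they called 1417 and 1576 of all genes. By the study's rule, OB count of 1 became 0 without the filter, without the trend, by edgeR with either scaling, relative to the markers, and 0 to 1 without 1 library, and became 3 as RPM. That rule gave 1 in HC by DESeq2 and 0 to 1 without 1 library, and 1 in CX against the average of region means. In BS it gave 3 without the filter, 2 relative to the markers and 1 to 5 without 1 library. Relative to the markers, Mt2 in CX against BS changed sign (-0.0069), where the median difference of all genes was -0.91. Calls over all genes moved with the settings too. Among the 4 regions 2285 of 13875 genes were called in the main fit, 3062 by DESeq2 and 3532 as RPM. They were 1552 without the trend, 2490 relative to the markers and 1064 of 24421 without the filter. OB against BS had 2075 calls over all genes, and 2961 as RPM. HC against BS had 643, with 952 by DESeq2 and 1194 as RPM. The causes were not tested. RPM values, a rescaling and not the deposited unit, moved the median of all genes by 0.20 in OB, 0.19 in HC, -0.34 in CX and -0.15 in BS against the other regions, and in pairs OB against BS by 0.25, HC against BS by 0.24 and CX against BS by -0.16.

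With a replicate block, OB against BS had 5 calls and HC against BS 3, and the call of Mt1 in BS against the other regions was lost (-0.73, adjusted p = 0.0581 by limma). Whether sample numbers pair the samples was not settled. Deviations of 15 same-numbered pairs correlated at -0.16 to 0.25, with a median of 0.02 and 3 over 0.1. Other pairs had a median of -0.0025, and 7 of 11 samples correlated best with their own number. With the block, calls over all genes went from 2075 to 2177 in OB against BS and from 643 to 675 in HC against BS. The shallowest library had 2830746 reads, which limits Hmox1, Nqo1 and Mt3.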

Other observations

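Genes of 3 stress responses that are not glutathione enzymes were also measured. Their counts stand beside the 16.5% of all tested genes that differed among regions. At an unadjusted p under 0.05, 3980 of all 13875 genes passed among the regions. Of 6 glucocorticoid-responsive genes, 1 differed among regions: Sgk1, a kinase induced by glucocorticoids, was lower in OB than in BS by -3.20 ± 0.55 (SE, adjusted p = 0.000976 by limma). The part of choroid plexus and oligodendrocyte transcripts in the Sgk1 difference was not tested. Of 6 tested genes of the integrated stress response, 1 differed: Psat1, an enzyme of serine synthesis, had 503 to 881 normalized counts in BS, 866 to 1560.1 in HC, 1302 to 1737 in OB and 2104 to 2182 in CX, and was lower in BS by -1.19 ± 0.25 (adjusted p = 0.0149). Of 11 immediate early and heat shock genes, which respond to tissue handling, limma called 0 among the regions (0 at an unadjusted p under 0.05), edgeR 0 and DESeq2 1. Their summed level ran from 492 to 5422 within HC and 906 to 5749 within BS. In OB it was 1954 to 4162 and in CX 1201 to 1564, ranges that did not overlap.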
